A study of Mus musculus with 16 samples.

Results

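Rearrangements of the T cell receptor beta chain that joined in line but carried a stop codon made up 2364 of the 198953 unique rearrangements in 16 samples from mouse tumors, labelled as T cells. They were taken as every entry of frame type Stop, beside 126344 in-frame entries without a stop codon (In) and 70245 out-of-frame entries (Out). Each entry is 1 nucleotide sequence of 87 bases with its templates, the estimated number of starting molecules. The tumors were subcutaneous KPC-Luc pancreatic tumors of female C57BL/6 mice, with 4 mice in each of 4 groups. The labels describe selection of T cells on CD90.2 to a purity of 80 to 85%, in a protocol that goes on to an RNA panel, while the study's account of the receptor sequencing names tumors and no T cell selection, so the cells that entered are not settled. Controls were given a scrambled peptide together with IgG of the isotype. ANT008 mice had the VIP receptor antagonist ANT008 with IgG, anti-PD-1 mice the scrambled peptide with anti-PD-1, and combination mice both active agents. All groups received 10 µg of peptide daily and 200 µg of antibody every 3 days for 10 days, from day 6 to 7 after implantation, so the controls carried both injections too. The tumor line is a single luciferase-tagged model, mice were 8 to 10 weeks old in the study's experiments and tumors were taken on day 21, and the files hold receptor sequences only, so the T cell label could not be checked against other genes.

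A beta chain gene is assembled by joining a V, a D and a J segment, with nucleotides trimmed from the segment ends and others inserted between them. The complementarity-determining region 3 (CDR3), which contacts the peptide, spans this join. A join that keeps the reading frame can still create a stop codon, and such an allele makes no receptor. It is carried by a T cell whose other allele made the working chain, and it is therefore copied with that cell without being selected for its own specificity. Out-of-frame joins share this fate, so the frame types were compared with each other within each sample.

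The Stop entries were checked against their sequences. Every Stop entry had a CDR3 whose length was a multiple of 3 and at least 1 stop codon in line within it. The codon was TAA in 1369, TAG in 500 and TGA in 495 of them, taking the first in each. It was the fifth codon of the CDR3, counted from the conserved cysteine, in 1448 entries (61.3%).

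More than any other V gene, Trbv4 (TCRBV04-01 in the files) supplied them. It contributed 1201 Stop entries (50.8%), and 18.7% of its in-line rearrangements (Stop plus In) were Stop. The sequences of the V ends, read from entries with no V nucleotide deleted and starting at the cysteine codon of the CDR3, are shown because they differ at this point. Capitals mark an in-line stop codon.
Trbv4: tgtgccagcagcTAAga
Trbv24: tgtgccagcagtctgta
Trbv15: tgtgccagcagtttagc
Trbv3: tgtgccagcagcttagc
Trbv22: tgtgccagcagttgtc
The Trbv4 end shown was read in 1346 of 1419 entries (94.9%) without a V deletion, and for the other 4 genes in 97.4% to 99.8%. Trbv4 alone of the 5 holds a complete stop codon, as the fifth codon. The fifth codon is ctg in Trbv24, tta in Trbv15 and Trbv3 and tgt in Trbv22, and the Trbv24 end stops after the first ta of its sixth codon.

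The frame type of Trbv4 joins followed the number of nucleotides trimmed from the V end. With 0, 1 or 2 V nucleotides deleted, when TAA is still whole, 1039 of 1111 in-line entries were Stop (93.5%; 93.8% ± 2.55, SD, n = 16 samples, with a range of 89.8% to 97.7%). With 3 deleted the share was 14.1% (115 of 818), and with 4 or more it was 1.05% (47 of 4478). The 72 in-frame entries with 0 or 1 nucleotide deleted all had another codon in place of TAA in the stretch assigned to Trbv4, and came from all 16 samples. For the remaining V genes of the functional list without Trbv24, the share of Stop among in-line entries with 0 to 2 V nucleotides deleted was 0.605% (388 of 64090).

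**Figure D1:**
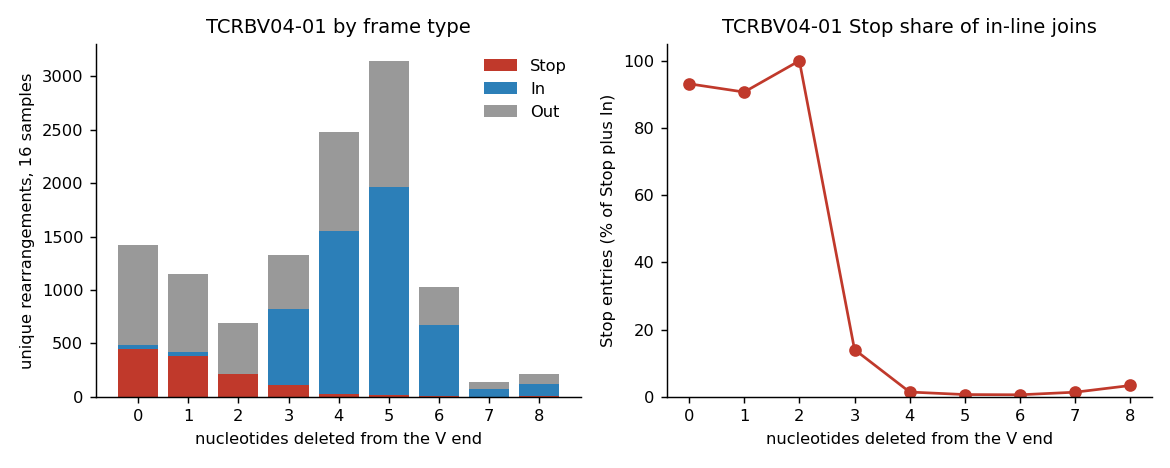
Unique Trbv4 rearrangements summed over 16 samples, by the number of nucleotides deleted from the V end (horizontal axes). The left panel stacks the number of Stop, In and Out entries, and the right panel gives Stop as a percentage of Stop plus In, which was 93.2%, 90.7% and 100% at 0, 1 and 2 deleted nucleotides, 14.1% at 3 and 1.41% at 4.

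A pair of rearrangements of this gene show the difference. The first is the most abundant Stop entry of control replicate 4, with 192 templates and no V deletion, and the second is the most abundant in-frame Trbv4 entry of the series, with 1499 templates in anti-PD-1 replicate 2 and 5 V nucleotides deleted, where TAA is gone. Capitals mark the stop codon.
Trbv4 Stop: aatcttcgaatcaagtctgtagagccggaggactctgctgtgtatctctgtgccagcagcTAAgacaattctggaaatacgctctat
Trbv4 In: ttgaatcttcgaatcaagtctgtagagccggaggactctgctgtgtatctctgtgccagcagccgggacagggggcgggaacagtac

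Where the stop codon survived, the balance of in-line to out-of-frame joins was also different. Trbv4 entries with 0 to 2 V nucleotides deleted had 0.516 in-line entries for each Out entry (0.518 ± 0.0682, n = 16, range 0.391 to 0.642). Trbv4 entries with 4 or more deleted had 1.63 (1.59 ± 0.190, range 1.27 to 1.92), and the other functional V genes without Trbv24 had 2.01 (1.96 ± 0.166, range 1.57 to 2.27). The ranges over samples did not overlap between the first of these and the other two. These ratios were not tested against each other. As background, a join made at random lands in line as often as in either of the other two frames.

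Trbv24 (TCRBV24-01) was next, with 183 Stop entries (7.74% of all) and 8.26% of its in-line entries. Its stop codons lay elsewhere. In 118 of the 183 the codon spanned the end of the V segment, and in 128 it was the sixth codon. Trbv24 had 0.505 in-line entries for each Out entry (0.501 ± 0.0355, n = 16), close to the ratio of Trbv4 with TAA intact. Upstream of the CDR3, its framework held a further stop codon, shown in capitals in the bases that run into the CDR3.
Trbv24 framework: gcactgTAGctctgtgcc
This stretch was read in 6511 of 6604 Trbv24 entries (98.6%). The frame type in the files did not read it, so 2023 of the 2032 Trbv24 entries called In carried an in-line stop codon that was not counted. With the other V genes, 2312 in-frame entries (1.58% to 2.37% of those of a sample) had such an upstream stop codon.

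These uncounted entries outweighed the Stop entries in some samples. The 3 most abundant, all Trbv24, had 3827 templates in anti-PD-1 replicate 3 and 1044 and 864 in replicates 4 and 3 of the ANT008 group, and were named after their values were seen. They held 5.27%, 5.03% and 7.49% of the in-frame templates of their samples and had ranks 3, 2 and 2 among all rearrangements there. The first reads as follows, with the framework stop codon in capitals.
Trbv24 In: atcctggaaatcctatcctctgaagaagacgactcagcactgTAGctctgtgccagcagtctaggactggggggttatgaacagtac
Counting them as Stop raised the share of templates with a stop codon from between 0.368% and 2.31% to between 0.893% and 7.22%.

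Beyond these, Trbv22, which RefSeq lists as a pseudogene, and Trbv21 stood out. Trbv22 had 24 Stop entries (11% of its in-line entries), 19 of them with TGA and 22 at codon 5, and 0.497 in-line entries for each Out entry. Trbv21 had 19 (7.06%) and 0.472. Among the 24 V genes with enough entries to be tested, Trbv15 followed with 88 Stop entries and 2.35%, and at the low end were Trbv13-2 with 54 of 13064 in-line entries (0.413%), Trbv13-1 with 35 of 8221 (0.426%) and Trbv17 with 14 of 3281 (0.427%). All 22 V genes of the functional list had Stop entries, as did 8 of the 13 others, which together had 50. The list differs from RefSeq, which gives Trbv29, on the list, as a pseudogene and Trbv21, outside it, as a V segment. Trbv24 is on the list despite its framework stop codon.

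**Figure D2:**
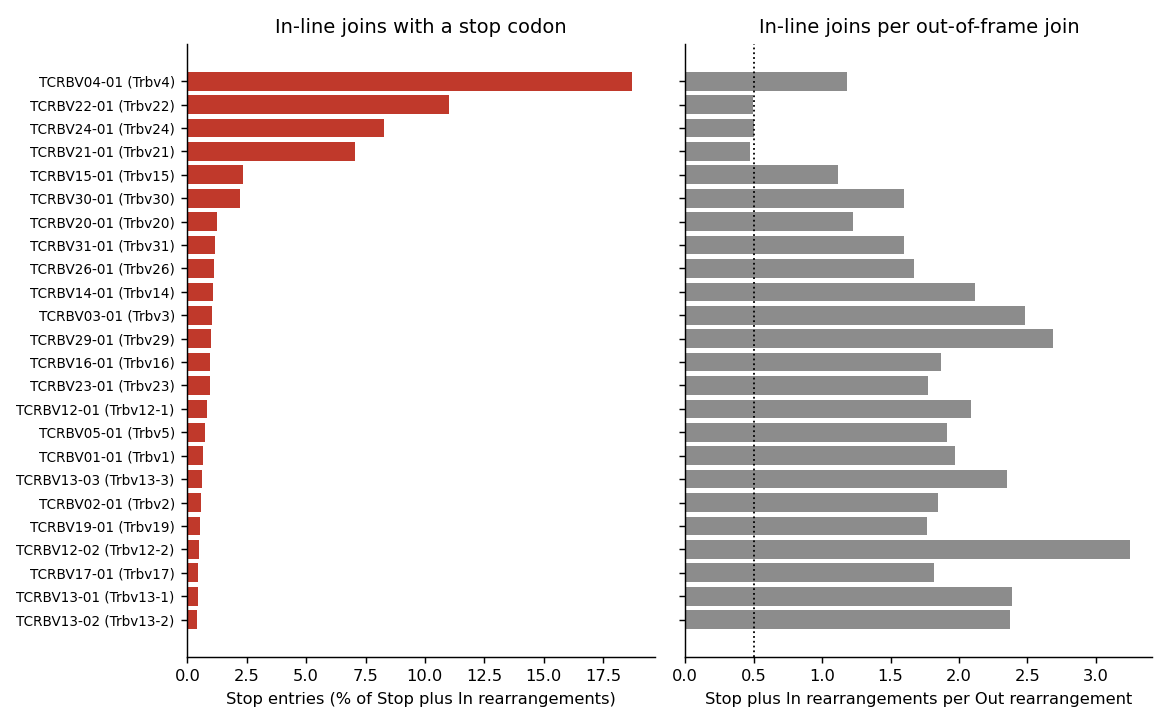
The 24 V genes with enough entries to be tested, ordered by Stop as a percentage of Stop plus In entries summed over 16 samples (left), beside the number of Stop plus In entries for each Out entry (right, dotted line at 0.5). Trbv4 leads on the left with 18.7%, and Trbv22, Trbv24 and Trbv21 have 11%, 8.26% and 7.06% there and between 0.472 and 0.505 on the right.

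Usage of V genes was then tested with edgeR's quasi-likelihood test on unique entries, with the sample as a block and Benjamini-Hochberg adjustment. Since Trbv4 takes such a large part of the Stop entries, the proportion of every other gene falls, and the median log2 difference over the 24 genes tested was -0.93 against In and -0.94 against Out. Of the 24, 22 were called against In (91.7%; 5 higher, 20.8%, and 17 lower, 70.8%, in Stop) and 20 against Out (83.3%; 3 higher, 12.5%, and 17 lower, 70.8%). Without Trbv4, an alternative added after the data were seen, the medians were 0.01 and -0.06, and 12 of 23 genes were called in each comparison (52.2%), with 4 higher (17.4%) and 8 lower (34.8%) against In and 6 higher and 6 lower (26.1% each) against Out. With TMM scaling 14 genes were called against In (58.3%), 5 higher (20.8%) and 9 lower (37.5%), and 10 against Out (41.7%), 4 higher (16.7%) and 6 lower (25%). DESeq2 called 15 against In (62.5%), 6 higher (25%) and 9 lower (37.5%), and 13 against Out (54.2%), 7 higher (29.2%) and 6 lower (25%).

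With Trbv4 in the count, the 3 genes higher in Stop against both In and Out were Trbv4, Trbv22 and Trbv24. Trbv4 differed by 3.62 on the log2 scale against In (SE 0.0570, adjusted p = 1.56e-63 by edgeR) and by 2.72 against Out (SE 0.0536, adjusted p = 1.05e-56). Trbv24 differed by 2.26 against In (SE 0.138) and 0.31 against Out (SE 0.114, adjusted p = 0.0130), and without Trbv4 by 3.22 and 1.21. Trbv22 differed by 2.70 against In and 0.70 against Out (adjusted p = 0.0380), and without Trbv4 by 3.66 and 1.61. The Trbv22 call against Out was lost on leaving out any of 5 single samples (control 1, anti-PD-1 2 and 4, combination 1 and 4), at 0.57 to 0.64 with adjusted p up to 0.121 by edgeR. Counted by templates, Trbv24 and Trbv22 were no longer higher than in Out (-0.065 and -0.33, adjusted p = 0.867 and 0.600). Trbv21 was called against In at 1.99 (SE 0.406), while against Out it gave -0.03, or 0.88 without Trbv4 (adjusted p = 0.0386). Against In without Trbv4 it was called at 2.95 (adjusted p = 1.66e-08 by edgeR). Trbv15 was called against In at 0.36 (SE 0.172, adjusted p = 0.0439) but gave -0.37 against Out, which turned to 0.54 without Trbv4 (adjusted p = 0.00609). Against In without Trbv4, Trbv15 was called at 1.32 (adjusted p = 1.57e-09 by edgeR). With Trbv4 in the count, the Trbv15 call against In was lost with no filter on low counts. It was also lost without Stop entries 1 substitution from a more abundant in-frame entry. Leaving out any of 7 single samples lost it too (control 1, 3 and 4, ANT008 2, anti-PD-1 3, combination 2 and 3). Without anti-PD-1 replicate 3 the difference fell to 0.21 (adjusted p = 0.280).

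Among genes lower in Stop, 6 kept an adjusted p below 0.05 against Out with and without Trbv4. They were Trbv17, Trbv19, Trbv13-2, Trbv13-1, Trbv2 and Trbv1, with log2 differences from -2.12 to -1.41 with Trbv4 and from -1.22 to -0.50 without it. Trbv13-3 and Trbv5 were lower only with Trbv4 in the count (-1.26 and -1.22, against -0.35 and -0.31 without it, adjusted p = 0.177 and 0.173). Against In, Trbv13-2, Trbv17, Trbv13-1, Trbv12-2, Trbv19, Trbv2, Trbv13-3 and Trbv1 were lower, from -2.17 to -1.52, and all 8 remained called without Trbv4, from -1.20 to -0.56. Of the other genes called lower, 7 against In and 5 against Out turned sign without Trbv4, Trbv3, Trbv14, Trbv26 and Trbv31 in both, and 2 of these (Trbv3 and Trbv15) were then called higher than in Out.

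The J segments differed less. Of 13 J genes tested, 6 were called against In (46.2%; 3 higher and 3 lower, 23.1% each) and 4 against Out (30.8%; 2 higher and 2 lower, 15.4% each). Trbj2-7, the most used J gene, supplied 408 Stop entries (17.3%) against 21.1% of In and 20.2% of Out, with log2 differences of -0.29 (SE 0.0653, adjusted p = 1.21e-04) and -0.23 (SE 0.0662, adjusted p = 0.00901) by edgeR. Its call against Out was not kept by templates (-0.36, adjusted p = 0.443). Trbj2-1 was lower as well, at -0.44 and -0.26 (adjusted p = 3.48e-05 and 0.0234), the second not kept without Trbv4 (adjusted p = 0.152), by templates, or without combination replicate 3 or 4. Trbj1-4 was lower than in In (-0.33, adjusted p = 0.0155), a call lost by templates (0.054, adjusted p = 0.862). Against Out it gave -0.26 and was not called (adjusted p = 0.0858), but DESeq2 called it (-0.32, adjusted p = 0.0448). Without Trbv4, edgeR called Trbj1-4 lower against In (-0.60, adjusted p = 0.00382) and against Out (-0.53, adjusted p = 0.0132). Trbj1-1 was higher than in Out (0.26, adjusted p = 0.0334), a call kept without Trbv4 (0.41, adjusted p = 0.0132 by edgeR). The Trbj1-1 call was lost with DESeq2 (0.22, adjusted p = 0.0974) and by templates (adjusted p = 0.664). It was also lost without any of 6 single samples (control 2, ANT008 3 and 4, anti-PD-1 2, combination 3 and 4). Trbj2-3 and Trbj1-3 were higher than in In (0.28 and 0.32, adjusted p = 0.0126 and 0.0366), both without a call once Trbv4 was left out (adjusted p = 0.138 and 0.107), with DESeq2 or by templates, and Trbj1-3 also without any of 6 single samples (control 3, control 4, anti-PD-1 1, anti-PD-1 3, anti-PD-1 4, combination 3). The other 6 J genes tested were Trbj1-2, Trbj1-5, Trbj1-6, Trbj2-2, Trbj2-4 and Trbj2-5, none of them called in either comparison on unique entries, and Trbj2-6 had no Stop entry. Counted by templates, Trbj1-2 was called lower than in Out (-1.28, adjusted p = 0.00184 by edgeR). Without combination replicate 3 or without combination replicate 4, only 2 J genes were called against Out.

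Trbj1-7 stood far outside this range. It had 23 Stop entries, from 12 samples and 16 V genes, beside 4 In and 36 Out, so that 85.2% of its in-line entries were Stop. The log2 difference was 7.31 against In (SE 0.572, adjusted p = 5.30e-19) and 4.19 against Out (SE 0.461, adjusted p = 2.04e-12). Of the 23, 21 ended in the same 39 bases, as did 31 of the 36 Out entries. One Stop entry, joined to Trbv24, reads as follows, with the stop codon that the shared stretch supplied in capitals and the Trbv24 framework codon left in lower case.
Trbj1-7 Stop: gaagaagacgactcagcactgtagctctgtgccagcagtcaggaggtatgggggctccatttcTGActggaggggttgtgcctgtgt
The files counted part of this shared stretch as inserted nucleotides, at least 25 at the D to J join in 22 of 23 entries, and gave these entries a median of 39 inserted nucleotides and a CDR3 of 72 nucleotides. They held only 29 templates in all.

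Outside Trbv4, stop codons were spread over the join. Of the 1163 Stop entries with other V genes or no V gene, TGA was the codon in 473 (40.7%), TAG in 377 (32.4%) and TAA in 313 (26.9%), whereas TAA made up 1056 of 1201 (87.9%) with Trbv4. The codon spanned the V end in 350, lay at an edge of or across the D segment in 342, consisted of inserted nucleotides in 278 and ran into the J segment in 179. In 7 it lay wholly within the V segment and in 7 it was made of V and J together. Trbd1 was called in 54.4% of these entries, against 42.4% of In and 44.6% of Out without Trbv4, and Trbd2 in 28.0% against 39% and 37.7%. By sample, the Trbd1 share was 53.2% ± 9.0 in Stop and 43.9% ± 2.07 in Out (SD, n = 16), and these D shares were not tested.

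Stop joins carried more inserted nucleotides than either other frame type. The mean was 4.81 ± 0.505 in Stop, 3.56 ± 0.0736 in In and 4.14 ± 0.150 in Out (SD over 16 samples). Stop was higher than In in 16 of 16 samples, by 1.25 (SE 0.127, exact sign-flip permutation p = 3.05e-05, the smallest 16 samples can give, adjusted p = 1.22e-04 over 12 comparisons). It was higher than Out in 15 of 16, by 0.667 (SE 0.0984, exact permutation p = 6.10e-05, adjusted p = 1.46e-04). The Trbj1-7 entries held part of this, and without them the differences were 0.883 and 0.314 (exact permutation p = 3.05e-05 and 0.00430). Without both Trbv4 and Trbj1-7 they were 1.80 and 1.20 (exact permutation p = 3.05e-05 and 6.10e-05). Within classes of CDR3 length rounded to whole codons, with Trbv4 and Trbj1-7 included, the difference from Out was 0.0726 and did not pass (exact permutation p = 0.346).

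The share of Stop rose with the number of insertions once Trbv4 was left out. It was 0.450% of in-line entries with no inserted nucleotide (49 of 10899), 0.658% with 1 to 2, 0.855% with 3 to 5, 1.44% with 6 to 9 and 5.01% with 10 or more (124 of 2475, Trbj1-7 included). For Trbv4 the order did not hold, with 29.4% at no insertion and 17.2% to 19.5% at 1 to 9. A longer join holds more codons that can read as a stop, so length and frame type are not independent measures. This limit applies to the comparisons of insertions and of CDR3 length with In and Out as well. Whether it accounts for the rise with insertions was not tested.

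The CDR3 of Stop entries was longer too, at 43.7 nucleotides ± 0.625, against 42.0 ± 0.186 in In and 42.3 ± 0.120 in Out. The differences were 1.71 (SE 0.189) and 1.38 (SE 0.155), each in 16 of 16 samples (exact permutation p = 3.05e-05 for both, adjusted p = 1.22e-04). Without Trbv4 and Trbj1-7 the difference from In was 0.718 (exact permutation p = 0.00366) and that from Out, 0.440, no longer passed (exact permutation p = 0.0628). V deletions were fewer in Stop, with a difference of -0.478 from In and -0.897 from Out (exact permutation p = 6.41e-04 and 6.10e-05). Both differences turned sign without Trbv4, to 0.667 (exact permutation p = 4.27e-04) and 0.177 (exact permutation p = 0.337). J deletions gave 2.92 in Stop, 2.84 in In and 2.92 in Out (exact permutation p = 0.214 and 0.920), and without Trbv4 the difference from In was 0.238 (exact permutation p = 0.0396).

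**Figure D3:**
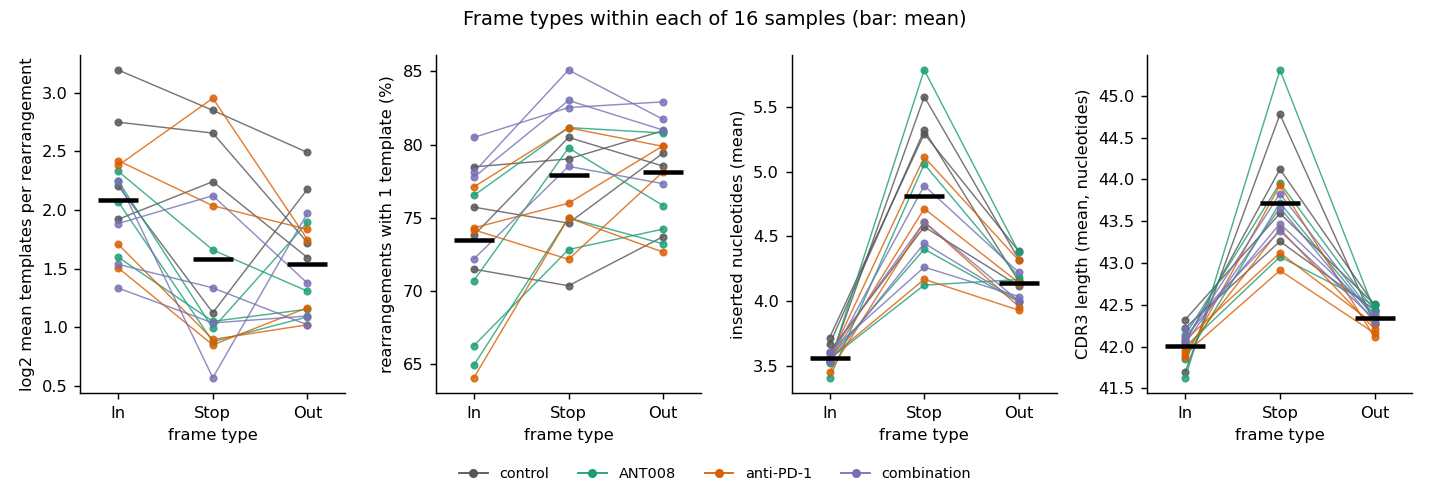
Means per sample for In, Stop and Out entries, 1 line for each of 16 samples, colored by group, with the mean over samples as a black bar. From left, log2 of the mean templates per rearrangement (Stop 1.58, In 2.08, Out 1.54), the percentage with 1 template (77.9, 73.5, 78.1), inserted nucleotides (4.81, 3.56, 4.14) and CDR3 length in nucleotides (43.7, 42.0, 42.3).

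In abundance, with the frame types as the files give them, Stop entries lay below In and near Out. Log2 of the mean templates per rearrangement was 1.58 ± 0.787 in Stop, 2.08 ± 0.493 in In and 1.54 ± 0.454 in Out. Stop minus In was -0.51 (SE 0.153, with Stop higher in 3 of 16 samples, exact permutation p = 0.00507, adjusted p = 0.00760). Against Out the difference was 0.04 (SE 0.180), ran from -1.40 to 1.20 between samples and did not pass (exact permutation p = 0.841). Without the most abundant entry of each frame type it was -0.256 (exact permutation p = 0.0512). Entries with a single template made up 77.9% ± 4.31 of Stop, 73.5% ± 4.96 of In and 78.1% ± 3.28 of Out, a difference of 4.40 percentage points from In (higher in 13 of 16, exact permutation p = 9.77e-04) and -0.221 from Out (exact permutation p = 0.772). At equal depth the difference from In was 2.01 points and did not pass (exact permutation p = 0.161). Both readings changed with upstream stop codons counted as Stop, an alternative added after the data were seen. Stop minus In in log2 templates was then -0.378 and did not pass (exact permutation p = 0.111). Stop minus Out in the share with 1 template was then -2.52 points and passed (exact permutation p = 0.00232). Since templates in these bulk samples come from all cells together, more cells of a clone and more template per cell cannot be told apart. Whether the starting molecule was RNA or DNA is not settled either.

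Almost no Stop sequence recurred. Of 2358 distinct Stop sequences, 6 (0.254%) were found in more than 1 sample, and none in more than 2. In sequences were shared at 2.55%, in up to 12 samples, and Out at 0.586%, in up to 7. Of the 6 shared, 5 used Trbv4 and 1 Trbv3. They had 0 to 3 inserted nucleotides and 2 to 25 templates in all. The pair with the most templates is shown, the first with 1 and 24 templates in anti-PD-1 replicates 1 and 2, the second with 1 and 14 in control replicates 2 and 3.
Shared Trbv4 Stop, 3 inserted: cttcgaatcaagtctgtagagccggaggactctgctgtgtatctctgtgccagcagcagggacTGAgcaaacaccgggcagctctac
Shared Trbv4 Stop, 2 inserted: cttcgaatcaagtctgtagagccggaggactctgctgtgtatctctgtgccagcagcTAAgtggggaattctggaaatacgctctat
Only 9 Stop entries (0.381%) lay 1 substitution, the distance a sequencing error would make, from a more abundant in-frame entry of their sample. None of the 9 used Trbv4. Measured likewise, In entries gave 1.54%, while Out entries were compared with more abundant Out entries and gave 0.673%. Stop entries were not compared with each other, so these rates do not rank the frame types by error.

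By sample, Stop entries numbered 56 to 297 among 4378 to 21531 rearrangements. In control samples they made up 1.30%, 1.01%, 1.29% and 1.26% of rearrangements. In ANT008 samples the share was 1.15%, 1.22%, 1.51% and 1.19%, in anti-PD-1 samples 1.13%, 1.23%, 1.38% and 1.28%, and in combination samples 1.00%, 1.14%, 1.10% and 1.17%. The groups overlapped. Trbv4 held between 43.1% and 58.9% of Stop entries in each sample, against 6.89% to 9.35% of Out entries.

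Templates varied far more. Out of 11317 to 99411 templates per sample, 101 to 2300 were Stop. The share in control samples was 1.5%, 0.482%, 1.74% and 1.15%, with a 95% Wilson interval of 1.38% to 1.64% for replicate 1 and of 1.64% to 1.85% for replicate 3. Such intervals cover counting error only. ANT008 samples had 0.527%, 0.926%, 0.819% and 0.933%. Anti-PD-1 samples had 0.749%, 1.07%, 2.31% and 0.892%, and combination samples 0.864%, 1.51%, 0.368% and 1.14%. Anti-PD-1 replicate 3 was the highest of the 16 and combination replicate 3 the lowest. Both were also the samples with the most templates.

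**Figure D4:**
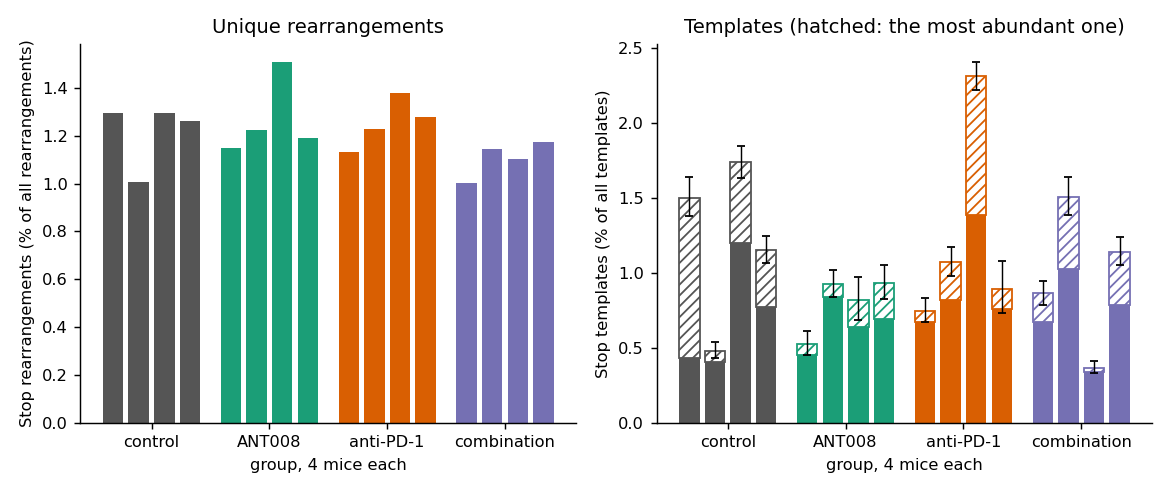
Stop entries as a percentage of all unique rearrangements (left) and of all templates (right) in the 4 mice of each group, in the order of their replicate number. The hatched part of a bar is the most abundant Stop rearrangement and error bars are 95% Wilson intervals for counting error. The left bars run from 1.00% to 1.51% and the right bars from 0.368% to 2.31%.

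In some samples, single rearrangements held much of these totals. The most abundant Stop rearrangement held between 8.17% and 71.4% of a sample's Stop templates (median 22.9%), and the 5 most abundant between 18.3% and 82.4% (median 45.5%). In combination replicate 3, which had the lowest of these shares, entries with 1 template held 55.6% of Stop templates. Only 83 Stop entries had over 10 templates and 12 had over 100. In control replicate 1, 1 rearrangement of Trbv15 and Trbj1-1 with 369 templates made up 71.4% of Stop templates and 1.07% of all templates. Without it the Stop share there would be 0.435% rather than 1.5%. In anti-PD-1 replicate 3, 1 Trbv15 and Trbj2-7 rearrangement had 920 templates (40.0%), a Trbv3 and Trbj1-1 rearrangement 598 (26%) and a Trbv4 and Trbj2-7 rearrangement 252 (11%). Without the first, the share there would be 1.40%, still the highest of the 16 samples computed in the same way, which then ran from 0.338% to 1.40%.

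The leading non-Trbv4 sequences are shown because their stop codons arose at different places in the join. Capitals mark the stop codon, which spans the V end in the first pair, runs from inserted nucleotides into the J segment in the third and the fourth, and came with 1, 2, 3 and 10 inserted nucleotides.
Trbv15, 920 templates, anti-PD-1 replicate 3: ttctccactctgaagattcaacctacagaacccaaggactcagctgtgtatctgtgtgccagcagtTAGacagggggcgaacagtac
Trbv3, 598 templates, anti-PD-1 replicate 3: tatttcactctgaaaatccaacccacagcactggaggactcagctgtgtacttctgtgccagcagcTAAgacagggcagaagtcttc
Trbv15, 369 templates, control replicate 1: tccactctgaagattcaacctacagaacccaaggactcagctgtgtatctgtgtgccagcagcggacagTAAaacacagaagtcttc
Trbv12-1, 169 templates, combination replicate 2: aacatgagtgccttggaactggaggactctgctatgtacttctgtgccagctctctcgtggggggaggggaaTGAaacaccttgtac
The last held 32.1% of the Stop templates of its sample.

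In the other samples the leader was mostly Trbv4. It led in 10 of 16 samples, with 306 and 192 templates in control replicates 3 and 4 (30.9% and 32.9% of Stop templates). In replicates 2, 3 and 4 of the ANT008 group its leader had 41, 27 and 66 templates (9.56%, 21.6% and 25.8%). In anti-PD-1 replicates 1, 2 and 4 it had 33, 110 and 15 (10.1%, 23.3% and 14.9%), and in combination replicates 3 and 4 it had 25 and 179 (8.17% and 31.1%). Trbv3 led in combination replicate 1 with 95 (22.5%) and in ANT008 replicate 1 with 25 (14.1%), and Trbv24 in control replicate 2 with 47 (15.1%). A further 6 of the rearrangements over 10% of a sample's Stop templates ranked second, with 12 to 168 templates, 4 of them Trbv4 and 2 Trbv15. None of these 24 rearrangements was found in another sample. Among all rearrangements of its sample, the leading Stop entry had a rank between 13 and 235.

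**Figure D5:**
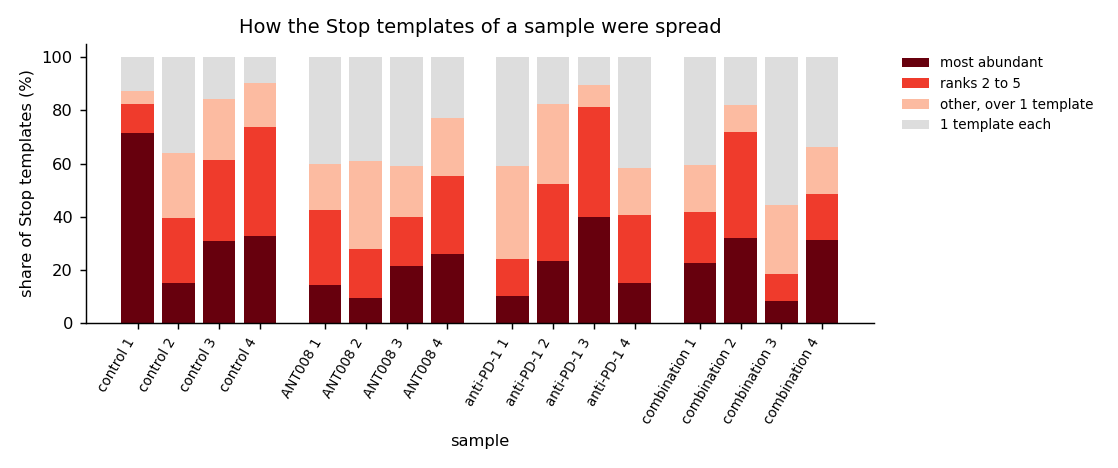
Share of the Stop templates of each sample (vertical axis, %) held by the most abundant Stop rearrangement, by ranks 2 to 5, by other rearrangements with over 1 template and by those with a single template. The darkest part runs from 8.17% in combination replicate 3 to 71.4% in control replicate 1.

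Treatment was then compared with control by an exact permutation form of Dunnett's comparison, 2-sided, over 63063000 assignments of the 16 samples. None of 18 comparisons over 6 measures passed 0.05, before or after adjustment. Nothing in the labels says more than that the mice were separate, and with 4 against 4 the smallest unadjusted p a single pair of groups can reach is 0.0286. The Stop share of rearrangements was 1.21% ± 0.140 in control, 1.27% ± 0.163 in ANT008, 1.25% ± 0.103 in anti-PD-1 and 1.11% ± 0.0741 in combination mice (SD, n = 4 each, exact permutation p = 0.874, 0.940 and 0.500). The Stop share of templates was 1.22% ± 0.548, 0.801% ± 0.190, 1.26% ± 0.717 and 0.971% ± 0.480 (n = 4 each, exact permutation p = 0.561, 1.00 and 0.851).

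Templates per Stop rearrangement came closest. The control samples had 6.30, 2.18, 4.73 and 7.21, the ANT008 samples 1.99, 2.07, 1.84 and 3.16, the anti-PD-1 samples 1.86, 4.10, 7.74 and 1.80, and the combination samples 2.05, 4.36, 1.49 and 2.53. In ANT008, 3 of 4 samples were below the lowest control, and the fourth was not. On the log2 scale the differences from control were -1.07 for ANT008, -0.53 for anti-PD-1 and -0.95 for both agents (each with an SE of 0.519, exact permutation p = 0.147, 0.608 and 0.213, adjusted p = 0.938 for each). Control replicate 2 decided the side of the threshold for ANT008, with -1.44 and an exact permutation p of 0.0453 without it. The share of Stop templates in the leading rearrangement was 37.6% ± 23.9 in control and 17.8% ± 7.29, 22.1% ± 13.1 and 23.4% ± 11.1 in the treated groups (n = 4 each, exact permutation p = 0.194, 0.386 and 0.465), and for ANT008 it too passed without control replicate 2 (-27.3 percentage points, exact permutation p = 0.0449).

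Inserted nucleotides in Stop entries averaged 5.19 ± 0.432 in control, 4.84 ± 0.742 in ANT008, 4.65 ± 0.388 in anti-PD-1 and 4.55 ± 0.267 in combination mice (n = 4 each, exact permutation p = 0.625, 0.316 and 0.208), and without Trbj1-7 the differences from control were -0.0791, -0.221 and -0.231. CDR3 length averaged 43.9, 44.0, 43.3 and 43.6 nucleotides (exact permutation p = 0.998, 0.425 and 0.793), and anti-PD-1 passed only without Trbv4, at -1.40 nucleotides (exact permutation p = 0.0382). No departure of the combination from the sum of the single agents passed 0.05 in the 6 measures, with a lowest exact permutation p of 0.122. That test shuffled all samples, so its p-values assume no effect of either agent rather than a plain sum. With 4 mice per group it can miss a departure. For V gene usage between groups, only Trbv4 and Trbv24 had enough unique Stop entries to be tested, and edgeR called 0 of 2 in each comparison (0% called, 0 at an unadjusted p below 0.05, and 0 of 2 with DESeq2). Trbv24 was lowest relative to control with ANT008, at -0.67 on the log2 scale (SE 0.318, adjusted p = 0.101). Without ANT008 replicate 3 it was called there (-0.88, adjusted p = 0.0369). Counted by templates, 8 V genes were tested and 1 was called, Trbv12-1 in the combination (12.5%; log2 difference 4.83, SE 1.47, adjusted p = 0.0110 by edgeR), the gene whose rearrangement of 169 templates led combination replicate 2. None of the 8 was called with either single agent.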

How the data were processed

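TCR beta rearrangements of 16 samples were read from 1 deposited table per sample (immunoSEQ, mouse TCRB, survey depth). Per the file headers, each entry holds a sequence, its template count, frame type, V, D and J genes, CDR3 length, insertions and deletions. The template counts deposited by the authors are corrected for primer bias; read counts were empty, and aligner, germline reference and genome build are not given in the sources used here, so no coordinates are printed. The labels name RNA from selected T cells; the study's text names RNA in one place and tumor DNA in another. Deposited totals equalled the sums of entries in 16 of 16 samples. All 35 V and 14 J names matched RefSeq symbols (GRCm38.p6, names only).

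The members and lists were chosen with earlier results of these data known. Per-sample means were compared by exact permutation tests in Python 3.11.15 with numpy 2.4.6, and V and J usage with edgeR 4.0.16 (DESeq2 1.42.0 as an alternative), on unique entries, after filterByExpr. The genes named were, past adjusted p 0.05 in Stop against In or Out, up to 8 V genes with the largest positive and 8 with the largest negative difference, and all J genes tested; rearrangements named were each sample's most abundant Stop entry, any over 10% of its Stop templates, and those in most samples. The functional V list held 22 genes. On simulated counts for V usage, Stop minus Out, 40 of 40 genes changed by 1.5 on the log2 scale were recovered in 10 sets of 24 genes, with 8 false calls. The simulation held no gene as dominant as Trbv4 in Stop, so it did not test calls that arise from such a share. Alternatives were equal depth, weighting by templates, leaving out each sample or the most abundant entries, other scalings, filters and tools, and a replicate block; those without Trbv4 or Trbj1-7 and with upstream stop codons counted as Stop were added after seeing the data. Stop V gene usage correlated no more between samples with the same replicate number (mean -0.0197 over 24 pairs, 6 above 0.1) than between others (mean 0.0070 over 72 pairs). With so few Stop entries per gene and sample, this cannot tell whether samples were paired.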

Additional observations from a re-analysis of the deposited data

Results flagged for a closer look

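Among 56 sets of 4 samples checked for a sample far from the others, where chance sets apart about 1 in 20, 4 held one. Stop entries made up 1.01% of rearrangements in control replicate 2, against 1.26% to 1.30% in the other controls. As a percentage of in-line rearrangements they made up 2.42% in ANT008 replicate 3, against 1.83% to 1.92% in the rest of that group. The most abundant Stop rearrangement had 920 templates in anti-PD-1 replicate 3, against 15 to 110 in the rest of that group. In the same sample, in-frame entries with a stop codon upstream of the CDR3 held 6.13% of in-frame templates, against 0.721% to 1.01%. Over all samples there were 2312 such in-frame entries, which the frame type column does not count as Stop. None of 6 tests for a departure of the combination from the sum of the single agents passed 0.05 (lowest exact permutation p = 0.122).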

How the results depend on the processing

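With the settings of the report, no treatment call was made, so the values here give direction and size. With the same replicate numbers as a block, no call changed; templates per Stop rearrangement with ANT008 kept a log2 difference of -1.07 (exact sign-flip permutation p = 0.125, the smallest 4 pairs allow). The cause of each change below was not tested.

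Without Trbv4, chosen after seeing the data, the ANT008 difference was -0.0216 in Stop share of rearrangements and -0.165 in CDR3 length, the anti-PD-1 CDR3 difference was -1.40, and the departure of the combination in Stop share of templates was -0.0378. Within samples, Stop minus Out was -0.130 in log2 templates and 0.177 in V deletions, Stop minus In was 0.667 in V deletions and 0.238 in J deletions, Trbj1-6 (TCRBJ01-06) gave -0.0044 against In, and 12 and 12 V genes were called. Without Trbv4 and Trbj1-7, Stop minus Out was -0.117 in log2 templates, -2.02 points in the share with 1 template, 0.440 in CDR3 length and 0.175 in V deletions, and Stop minus In was 0.663 in V and 0.300 in J deletions.

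With upstream stop codons counted as Stop, also chosen after seeing the data, ANT008 differed from control by 2.61 points in share of templates, 0.362 in log2 templates per rearrangement, 10.9 points in the leading share and -0.000868 in CDR3 length, and the departures of the combination were -3.79, -0.902 and -17.1 for the first 3. Stop minus In was -0.378 in log2 templates and 0.0514 in V deletions, and Stop minus Out -2.52 points in the share with 1 template and -0.0544 in J deletions. With at least 2 templates, the anti-PD-1 difference in share of templates was -0.0144. Without the most abundant entry of each frame type, log2 templates against Out gave -0.256 (exact permutation p = 0.0512). Weighted by templates, the differences were 0.162 in insertions and 1.06 in CDR3 length against Out, and -0.342 in V and -0.291 in J deletions against In. Within CDR3 length classes insertions against Out gave 0.0726. At an equal depth of 11317 templates (50 draws), the ANT008 difference in share of rearrangements was -0.00364 and the share with 1 template against In 2.01.

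DESeq2 called 15 and 13 V genes against In and Out, and TMM 14 and 10. By templates, 3 and 2 of 13 J genes were called, and 1 of 8 V genes with the combination. By templates against In, Trbj1-2 (TCRBJ01-02) gave -0.25, TCRBJ01-04 0.054, TCRBJ01-05 -0.14, TCRBJ02-02 -0.53, TCRBJ02-03 -0.15 and TCRBJ02-05 -0.11 (-0.013 by DESeq2). Against Out they gave TCRBV24-01 -0.065, TCRBV22-01 -0.33, TCRBJ01-03 -0.16, TCRBJ01-05 -0.20 (-0.045 by DESeq2), TCRBJ02-02 -0.42, TCRBJ02-03 -0.25 and TCRBJ02-05 -0.10. Counted so, TCRBJ01-02 was called against Out at -1.28 (adjusted p = 0.00184 by edgeR).

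Leaving out 1 sample at a time, the Stop share of rearrangements ranged from -0.0256 to 0.0937 with ANT008 and from -0.0288 to 0.0814 with anti-PD-1, the share of templates from -0.315 to 0.211 with anti-PD-1, log2 templates per Stop rearrangement from -1.44 to -0.863, the leading share from -27.3 to -8.53 and CDR3 length from -0.355 to 0.390 with ANT008. Against Out, log2 templates ranged from -0.0415 to 0.132, the share with 1 template from -0.498 to 0.163 and J deletions from -0.0254 to 0.0304. J genes called against Out numbered 2 to 5, with 2 without combination replicate 3 or 4, and V genes called with ANT008 0 to 1. TCRBJ01-06 ranged from -0.052 to 0.26 against In and from -0.25 to 0.079 against Out, and TCRBJ01-05 from -0.036 to 0.053 against Out. Of the main results and counts, 226 of 264 values under whole-table alternatives and 565 of 592 without 1 sample kept their direction and side of the threshold (counts, a size within 1.5 times), so 38 and 27 changed. Of the values for single genes, 41 of 323 and 41 of 800 changed. Depth limits the values of single samples, since Stop entries numbered as few as 56.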
